A study of Mus musculus with 8 samples.

Results

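Slc7a11, Gclc, Gclm, Gpx4, Txnrd1, Nqo1, Hmox1, Tfrc, Fth1 and Slc40a1 are 10 genes of antioxidant defence and iron handling. They were taken by gene symbol from the 56749 features counted in single nuclei of mouse visceral white adipose tissue, and all 10 were found in each of the 8 libraries. Tfrc stood highest in perivascular-like macrophage nuclei and, within macrophage-like nuclei as a whole, was 3.50-fold lower on the high fat diet than on the standard diet, 5.60-fold higher in Tert HFD than in mCherry HFD mice and 4.50-fold higher in TertCi HFD than in mCherry HFD mice. Perivascular markers in macrophage-like nuclei were also lower in the mCherry HFD mice, at 2339 and 2387 UMIs per 1000000 UMIs (CPM) against 7236 and 7917 CPM on the standard diet, and within perivascular-like nuclei alone the diet difference of Tfrc was -0.28 on the log2 scale and did not pass (edgeR adjusted p = 0.455). The Tert and TertCi differences there passed at smaller sizes, 2.90-fold and 2.23-fold higher. Fth1 moved the other way in nearly every class. Its levels lay below those of the free RNA in the same libraries, but for endothelial-like nuclei of mCherry SD mouse rep146. The glutathione genes Gclc, Gclm and Slc7a11 passed the test in no class.

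Cells detoxify peroxides with glutathione and thioredoxin, and many genes of both systems are targets of the transcription factor NRF2, which binds antioxidant response elements in promoters. Free iron feeds the same peroxides, so cells import it through the transferrin receptor, store it in ferritin and export it through ferroportin. Iron regulatory proteins bind a stem-loop called the iron-responsive element when iron is scarce: in a 5′ UTR it holds back translation, and in the 3′ UTR of Tfrc it protects the mRNA from decay. Macrophages are the cells best known for taking up heme, breaking it down and handing iron on, and adipose tissue macrophages include iron-rich resident cells.

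Iron-responsive elements tie 3 of the 10 genes to cellular iron, so their letters are shown before the counts. The search took any 17 bases of a UTR that read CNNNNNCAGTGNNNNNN and whose 5 bases before CAGTG can pair with the last 5 of the 17. A match was found in 132 of 21877 genes (0.603%) of the GRCm38 annotation (GENCODE M21), which is not the build of the counts, and in Fth1, Slc40a1 and Tfrc among the 10. The Fth1 match lay in the 5′ UTR, exon 2, at chr19:9982738-9982754 on the + strand. The Slc40a1 match lay in the 5′ UTR, exon 1, at chr1:45925471-45925487 on the - strand. Tfrc held 4 matches in its 3′ UTR, exon 19, on the + strand, at chr16:32631225-32631241, chr16:32631604-32631620, chr16:32631669-32631685 and chr16:32631716-32631732. Each is written 5′ to 3′ with the letters CAGTG in capitals.
Fth1 5′ UTR: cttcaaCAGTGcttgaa
Slc40a1 5′ UTR: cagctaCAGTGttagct
Tfrc 3′ UTR, site 1: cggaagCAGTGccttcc
Tfrc 3′ UTR, site 2: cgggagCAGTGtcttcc
Tfrc 3′ UTR, site 3: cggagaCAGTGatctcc
Tfrc 3′ UTR, site 4: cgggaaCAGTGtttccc

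The core letters of the antioxidant response element, TGACNNNGC, were searched on both strands in windows of 300 bases, from 250 before to 50 after the annotated start (RefSeq, GRCm38.p6). They occurred in 4071 of 32851 windows (12.4%). The 7 genes with an entry (Slc7a11, Gclm, Nqo1, Txnrd1, Gpx4, Tfrc and Fth1) had 14 windows, of which 2 held the letters (14.3%), near the share over all windows. Both matches lay before the start, that of Gclm within chr3:122245413-122245441 and that of Txnrd1 within chr10:82859104-82859132. These coordinates include 10 bases on either side of the match. Both read on the strand opposite to the gene, and the capitals below mark the matched letters with 10 bases on either side.
Gclm promoter: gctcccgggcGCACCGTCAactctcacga
Txnrd1 promoter: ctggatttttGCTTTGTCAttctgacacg

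All 8 mice carried a modified p21 allele beside a wild-type one, in 4 groups of 2. The genotype p21+/mCherry was kept on the standard diet (SD; mCherry SD, mice rep144 and rep146) and on the high fat diet (HFD; mCherry HFD, mice rep128 and rep129). The genotypes p21+/mCherry-Tert (Tert HFD, mice rep134 and rep136) and p21+/mCherry-TertCi (TertCi HFD, mice rep138 and rep140) were kept on the high fat diet only. Tert is the catalytic subunit of telomerase, TertCi is a second Tert construct that the labels do not spell out, and the p21 promoter drives both, so that only cells with an active p21 promoter are meant to express them. No group pairs standard diet with either Tert construct. Replicates are separate mice. Nuclei were sorted on DNA stain and their RNA counted as unique molecular identifiers (UMIs). Each library was made from 1 mouse. The design asks how the high fat diet, and each Tert construct on that diet, change the transcriptome of this tissue. The mCherry HFD mice serve in the comparisons for diet, Tert and TertCi, so those comparisons are not independent of each other. Samples were processed in batches of 2 that the labels do not list. A batch may thus be the same 2 mice as a group, so group and batch cannot be told apart.

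The libraries held 23378488 to 139749876 UMIs and gave 30209 nuclei, from 1978 to 7433 a library, with a median of 1682 to 7133.5 UMIs per nucleus. Tert over all barcodes read 2.01 to 2.76 CPM in the 4 libraries labelled Tert or TertCi and 3.27 to 3.98 CPM in the 4 mCherry libraries, from 1575 UMIs in all, and the counted mCherry feature held 25 UMIs. The Tert ranges did not overlap, and Tert was lower, not higher, in the libraries labelled with a Tert construct. The labels do not say whether a construct carries the 3′ end that was counted, so these counts cannot check the genotypes, and every Tert and TertCi comparison rests on the labels alone. Cdkn1a, the gene of p21, was at 1.57 and 3.19 CPM in mCherry SD, 14.3 and 17.1 CPM in mCherry HFD and 4.28 to 8.48 CPM in the Tert and TertCi libraries. Of 30088 distinct nuclear barcodes, 119 occurred in more than 1 library. Clustering, without the 10 genes or the wider pathway list among its genes, gave 34 clusters, of which 15 with 28.3% of nuclei stayed unnamed or mixed. The named classes were macrophage-like (8602 nuclei), progenitor-like (6664), adipocyte-like (5226), endothelial-like (838) and epithelial-like (323, of which 257 came from mCherry HFD mouse rep128 and 64 from mCherry SD mouse rep146). The subsets of the macrophage-like nuclei were perivascular-like (2770), lipid-associated-like (2272) and monocyte-like (626), and 2934 stayed in unnamed subclusters. The lipid-associated-like subset includes a subcluster of 484 nuclei led by cycling genes such as Neil3, Top2a and Mki67. The monocyte-like subset is a single subcluster led by Cd226 and Skint3. It was named from 4 raised monocyte markers, of which only Fn1 is among its 10 leading genes. Epithelial-like nuclei, with enough nuclei in 2 libraries only, are left out of the orders of 6 classes below. The 8 adipocyte markers summed to 3223 to 5989 CPM in adipocyte-like nuclei and 55.7 to 517 CPM in macrophage-like nuclei. Since these markers also named the classes, the sums cannot check the tissue label. Endothelial-like nuclei also held the 8 macrophage markers at 1088 to 2026 CPM, with none at 0. The mCherry HFD libraries stood apart in their free RNA, read from barcodes with more than 100 and fewer than 500 UMIs. Genes with symbols starting in Rpl or Rps, ribosomal protein genes among them, took 2.25% and 1.37% of those UMIs, against 0.157% to 0.432% in the other 6 libraries. Every level below is the CPM of a gene in the summed nuclei of 1 class and 1 library with at least 20 nuclei. Levels are compared within a gene only, since counts were not scaled by length. A lower level in a class can reflect less RNA per nucleus or a changed mix of nuclei, which these sums cannot tell apart.

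**Figure D1:**
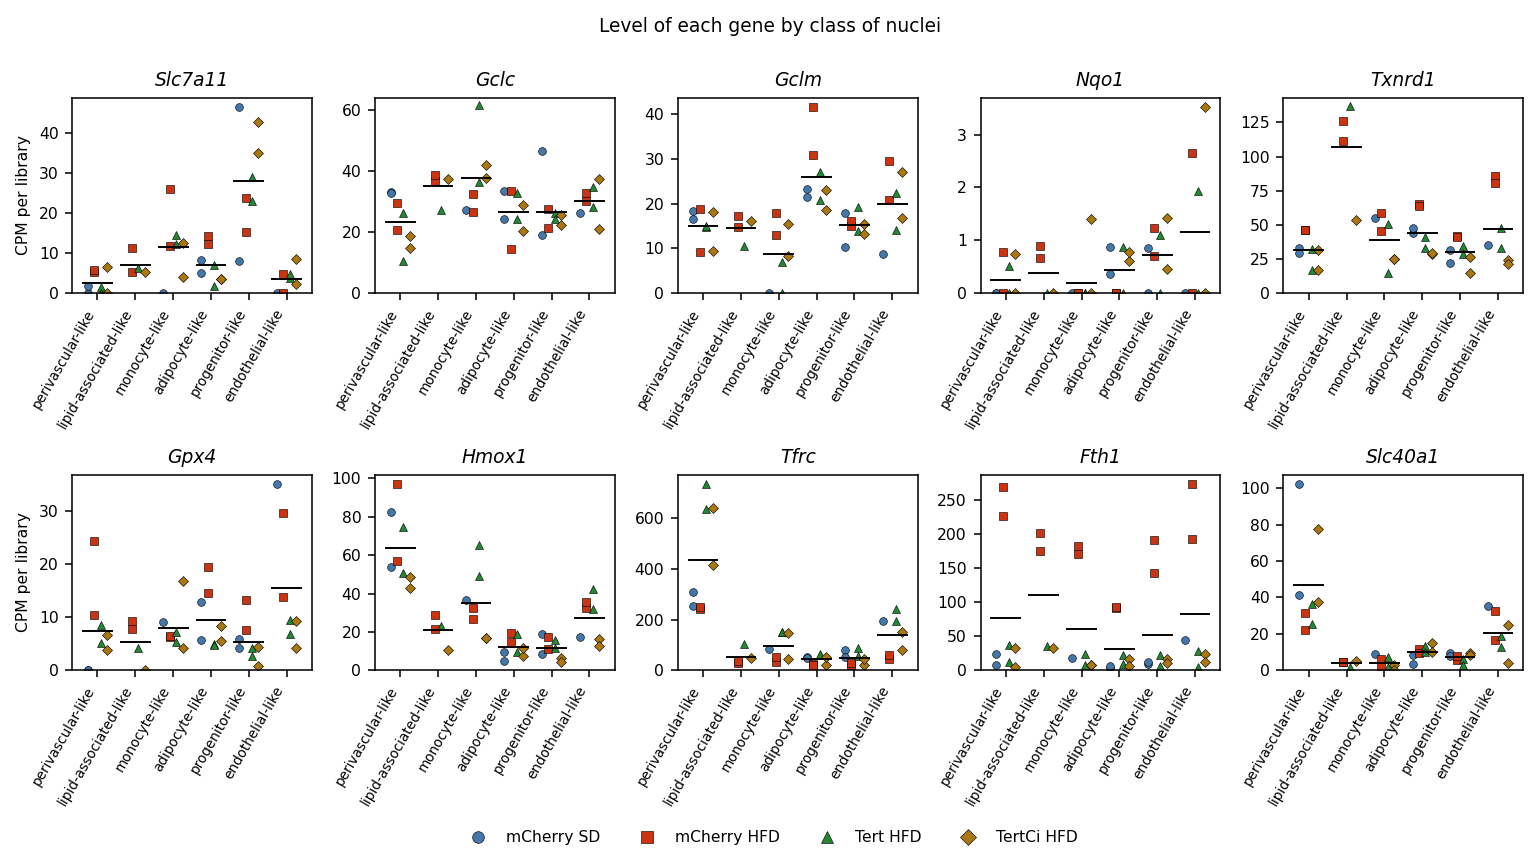
Level of each of the 10 genes (CPM, 1 panel a gene) in 6 cell classes, with 1 point per library coloured by group and a black line for the mean over libraries. Of these 6, Tfrc, Hmox1 and Slc40a1 are highest in perivascular-like nuclei, Txnrd1 in lipid-associated-like nuclei and Slc7a11 in progenitor-like nuclei.

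Perivascular-like macrophage nuclei, defined by Lyve1, Cd163, Timd4 and Folr2 among other markers, carried the highest levels of 3 iron genes among the 6 classes. Tfrc, the transferrin receptor that imports iron, averaged 435 ± 205 CPM there (SD, n = 8 libraries). The order then ran through endothelial-like (138.1 ± 76.8 CPM, n = 7), monocyte-like (94.5 ± 53.6, n = 7), lipid-associated-like (54.3 ± 35.0, n = 4), progenitor-like (48.9 ± 25.9, n = 8) and adipocyte-like nuclei (43.3 ± 18.5, n = 8). The first gap exceeded the SD of both neighbours and was seen in 7 of 7 libraries with both classes, whereas no later gap in that order exceeded both SDs. Tfrc in perivascular-like nuclei was 4.92 to 9.38 times the level in free RNA in 8 of 8 libraries. In adipocyte-like and progenitor-like nuclei it was above free RNA in 1 of 8 libraries each, with median ratios of 0.562 and 0.613. Within the progenitor-like class the cluster led by Egfros and Col1a1 stood apart, at 144.4 ± 75.3 CPM of Tfrc (n = 8).

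Hmox1, the enzyme that splits heme and frees its iron, averaged 63.5 ± 19.1 CPM (SD, n = 8) in perivascular-like nuclei, 1.44 to 8.82 times the free RNA. In barcodes with 10 to 100 UMIs, the window planned first, free RNA stood above these nuclei in Tert mouse rep134, at 74.1 CPM from 8 UMIs. The next class, monocyte-like, was at 34.8 ± 17.7 CPM (n = 7) and lower in 7 of 7 libraries, a gap larger than both SDs. Adipocyte-like and progenitor-like nuclei were lowest, at 12.0 ± 5.35 and 11.8 ± 5.19 CPM, with no gap beyond the SDs between them. Slc40a1, the iron exporter ferroportin, averaged 46.7 ± 28.2 CPM (n = 8) in perivascular-like nuclei, 1.59 to 10.8 times the free RNA. Its gap to endothelial-like nuclei (20.7 ± 11.01 CPM, n = 7) was not larger than both SDs. Slc40a1 was lowest in lipid-associated-like (4.21 ± 1.44 CPM, n = 4) and monocyte-like nuclei (4.15 ± 3.45 CPM, n = 7), below free RNA in all libraries measured.

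Of the 6 classes, lipid-associated-like nuclei, defined by Trem2, Gpnmb and Spp1 among other markers, had the highest mean of Txnrd1, which encodes the cytosolic thioredoxin reductase. Txnrd1 read 111 and 126 CPM there in mCherry HFD mice rep128 and rep129, 137 CPM in Tert mouse rep134 and 53.4 CPM in TertCi mouse rep138. The mean of 107 ± 37.2 CPM (SD, n = 4) lay above endothelial-like nuclei (46.8 ± 26.2 CPM, n = 7) by more than both SDs, and above free RNA in 4 of 4 libraries. Fewer than 20 such nuclei were found in the other 4 libraries.

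Of the 6 classes, progenitor-like nuclei were highest in Slc7a11, the cystine importing subunit that feeds glutathione synthesis. Its levels were 46.5 and 7.96 CPM in mCherry SD, 15.4 and 23.8 CPM in mCherry HFD, 22.9 and 29.0 CPM in Tert HFD, and 35.0 and 42.7 CPM in TertCi HFD mice. The standard diet mice alone spanned the whole range. The mean of 27.9 ± 13.2 CPM (SD, n = 8) was 1.29 to 5.52 times free RNA in 8 of 8 libraries and above the next class, monocyte-like nuclei (11.6 ± 8.23 CPM, n = 7), in 6 of 7 libraries with both. In barcodes with 10 to 100 UMIs free RNA lay above progenitor-like nuclei in mice rep146 and rep128, at 8.21 and 31.5 CPM from 2 and 5 UMIs. Among progenitor-like clusters the one led by C7 and Dchs2 stood highest, at 39.5 ± 15.4 CPM (n = 8). Epithelial-like nuclei read 38.97 CPM in mCherry HFD mouse rep128, above the progenitor-like level of that library, and 3.29 CPM in mCherry SD mouse rep146, from 91 UMIs and 1 UMI. Their cluster led by Adam28, from mouse rep128 alone, was the highest of all clusters, at 82.7 CPM.

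Gclc and Gclm, the catalytic and modifier subunits of glutamate-cysteine ligase, had no class among the 6 that stood apart. Gclc class means ran from 23.4 ± 8.39 CPM (SD, n = 8) in perivascular-like to 37.7 ± 11.9 CPM (n = 7) in monocyte-like nuclei, and Gclm from 8.83 ± 7.12 CPM (n = 7) in monocyte-like to 25.8 ± 7.42 CPM (n = 8) in adipocyte-like nuclei. No neighbours in either order differed by more than both SDs, but Gclm was lower in progenitor-like than in adipocyte-like nuclei in 8 of 8 libraries and lower in macrophage-like than in adipocyte-like nuclei in 7 of 8. Most of these levels lay near or below free RNA. Epithelial-like nuclei lay above each of the 6 class means, with 92.0 CPM of Gclc and 52.6 CPM of Gclm in mCherry SD mouse rep146 and 77.5 and 94.7 CPM in mCherry HFD mouse rep128. The highest levels of both genes came from a small cluster led by the liver gene Alb, where 1 library gave 369 CPM of Gclc and 122 CPM of Gclm.

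Nqo1, a quinone reductase and standard NRF2 target, was barely counted. Its class levels reached at most 3.52 CPM, no neighbours in its order of classes differed beyond their SDs, and it passed the filter on low counts in no class. Gpx4, the peroxidase that repairs oxidised lipids, averaged 5.33 to 15.5 CPM over the classes, again with no gap beyond the SDs. Within libraries it was lower in macrophage-like and in progenitor-like than in adipocyte-like nuclei, in 8 of 8 each. In macrophage-like, adipocyte-like and progenitor-like nuclei Gpx4 lay below free RNA in 8 of 8 libraries. Reads of Gpx4 can be shared with its pseudogene Gpx4-ps2, which held 776 UMIs over all barcodes against 6226 for Gpx4.

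Fth1, the heavy chain of the iron store ferritin, had no class order that exceeded the spread: means ran from 31.2 ± 38.1 CPM (SD, n = 8) in adipocyte-like to 111 ± 89.6 CPM (n = 4) in lipid-associated-like nuclei. The latter mean held both mCherry HFD libraries and none on the standard diet, so these means are not matched by library. Within libraries Fth1 was higher in perivascular-like than in lipid-associated-like nuclei in 4 of 4. It was higher in macrophage-like than in adipocyte-like nuclei in 8 of 8. The spread came from the groups, since mCherry HFD libraries were high in every class. Class levels of Fth1 lay below the free RNA of the same library in every library and class measured but endothelial-like nuclei of mCherry SD mouse rep146 (1.47 times, from 5 UMIs). How much of them came from free RNA was not tested. The Fth1 pseudogenes held few UMIs (107 for Fth-ps2 and 19 for Fth1-ps, against 87541 for Fth1).

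**Figure D2:**
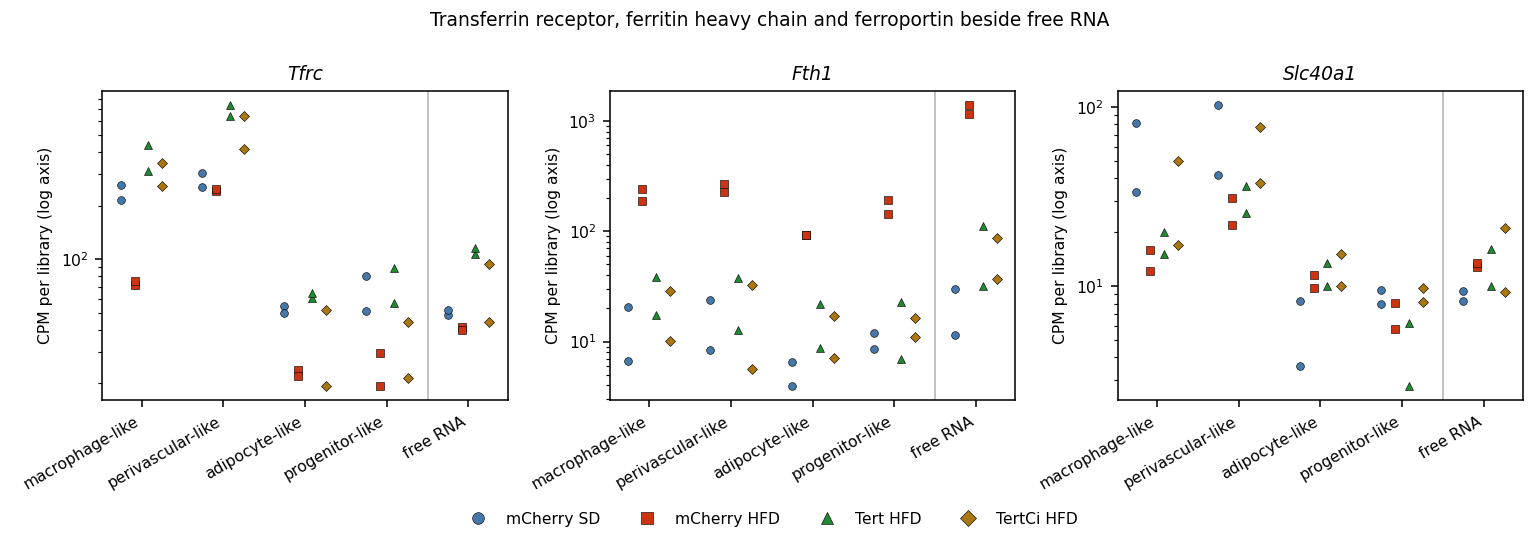
Levels of Tfrc, Fth1 and Slc40a1 (CPM, log axis) in 4 classes and in free RNA, with 1 point per library coloured by group. Tfrc and Slc40a1 in perivascular-like nuclei lie above free RNA, while Fth1 is highest in the free RNA of the mCherry HFD libraries, at 1389 and 1164 CPM.

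Across the diet comparison in macrophage-like nuclei, 6 of the 9 genes tested passed an adjusted p of 0.05 by edgeR, where 20.4% of the 13552 genes tested did. Fth1, Gpx4 and Txnrd1 were higher and Tfrc, Slc40a1 and Hmox1 lower on the high fat diet. The median log2 fold change of the 9 was -0.03, beside 0.11 over all genes tested. In the Tert comparison 2 of 9 passed (background 19.3%), Tfrc higher and Fth1 lower, with a median of 0.10 beside -0.05. In the TertCi comparison 4 of 9 passed (background 25.8%), Tfrc and Slc40a1 higher and Fth1 and Txnrd1 lower, with a median of 0.06 beside -0.08. The diet count rested on single mice: it was 2 without mCherry SD mouse rep146, 3 without mCherry SD mouse rep144 or TertCi mouse rep138, and 3 by DESeq2. The Tert count was 4 without Tert mouse rep134, and the TertCi count was 2 without mCherry HFD mouse rep128 or TertCi mouse rep138.

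Tfrc in macrophage-like nuclei read 261 and 214 CPM in mCherry SD, 71.7 and 75.9 CPM in mCherry HFD, 442 and 312 CPM in Tert HFD, and 257 and 348 CPM in TertCi HFD mice. Both mCherry HFD mice lay below the other 6, and the Tert and TertCi ranges overlapped. On the high fat diet Tfrc fell by 1.81 on the log2 scale (SE 0.207, edgeR adjusted p = 0.000114). It rose by 2.48 in Tert HFD (SE 0.193, edgeR adjusted p = 3.74e-05) and by 2.17 in TertCi HFD mice (SE 0.192, edgeR adjusted p = 3.64e-05), each against mCherry HFD. These calls held under each of 6 alternative settings and without each mouse in turn.

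The makeup of macrophage-like nuclei moved with the same groups. The cluster led by F13a1, Cd163 and Tfrc itself, which was not used for clustering, held 78.8% of macrophage-like nuclei in mCherry SD, 43.3% in Tert HFD and 53.0% in TertCi HFD mice. In mCherry HFD mice most such nuclei were in the clusters led by Mmp12 and Gpnmb (46.3%), Ms4a14 and Clec7a (24.8%), and Vsig4 and Ccl8 (18.2%). The 8 perivascular markers, none at 0, summed to 2339 to 2387 CPM in mCherry HFD and 2908 to 7917 CPM in the other libraries, and the 8 lipid-associated markers, none at 0, to 3980 to 4499 CPM against 281 to 1930 CPM. The part of this makeup in the class-wide differences was not tested. The perivascular-like subset is read by itself next, though its own makeup also moved with the groups.

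In perivascular-like nuclei Tfrc read 307 and 254 CPM in mCherry SD and 241 and 250.1 CPM in mCherry HFD mice. The Tert HFD mice were at 637 and 736 CPM and the TertCi HFD mice at 417 and 639 CPM, so all 4 mice with a Tert construct lay above the other 4. The diet difference of -0.28 (SE 0.220) did not pass (edgeR adjusted p = 0.455), and this subset had 2 of 7 genes called for diet (background 13.6%), namely Fth1 and Slc40a1. Tfrc rose by 1.53 in Tert HFD (SE 0.200, edgeR adjusted p = 0.000195; 2 of 7 genes called, background 11.6%) and by 1.16 in TertCi HFD mice (SE 0.200, edgeR adjusted p = 0.000735; 3 of 7 called, background 18.3%). Both calls held under the 5 alternatives run for this subset and without each mouse.

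Different subclusters filled the perivascular-like subset in the groups compared. In mCherry HFD mice 97.7% of these nuclei were in the subcluster led by C6 and Ccl8, and in the other groups 96.3% to 99.7% were in the subcluster led by Kctd16, Timd4 and Tfrc. Within the Timd4-led subcluster Tfrc was at 302 and 254 CPM in mCherry SD, 645 and 735 CPM in Tert HFD, and 419 and 639 CPM in TertCi HFD mice. Within the C6-led subcluster it was at 239 and 252 CPM in mCherry HFD mice, and 496 CPM in Tert mouse rep134, the only other library with at least 20 nuclei there. The part of this change of subcluster was not otherwise tested.

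The share of perivascular-like nuclei with a Tfrc UMI gave a view per nucleus, after each nucleus was thinned to 1000 UMIs. It was 20.5% and 31.9% in mCherry SD, 21.01% and 23.8% in mCherry HFD, 40.3% and 46.9% in Tert HFD, and 29.6% and 43.0% in TertCi HFD mice. Unthinned shares were 58.9% and 60.5%, 70.2% and 50%, 88.4% and 58.2%, and 66.7% and 78.2%, in the same order. Thinning left out 8 shallower nuclei, all from Tert mouse rep136. The Tert HFD shares lay above all 4 mCherry shares, whereas TertCi mouse rep138 lay below mCherry SD mouse rep146. In adipocyte-like nuclei, where Tfrc lay below free RNA in 7 of 8 libraries, the thinned share was 1.11% to 4.84%.

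**Figure D3:**
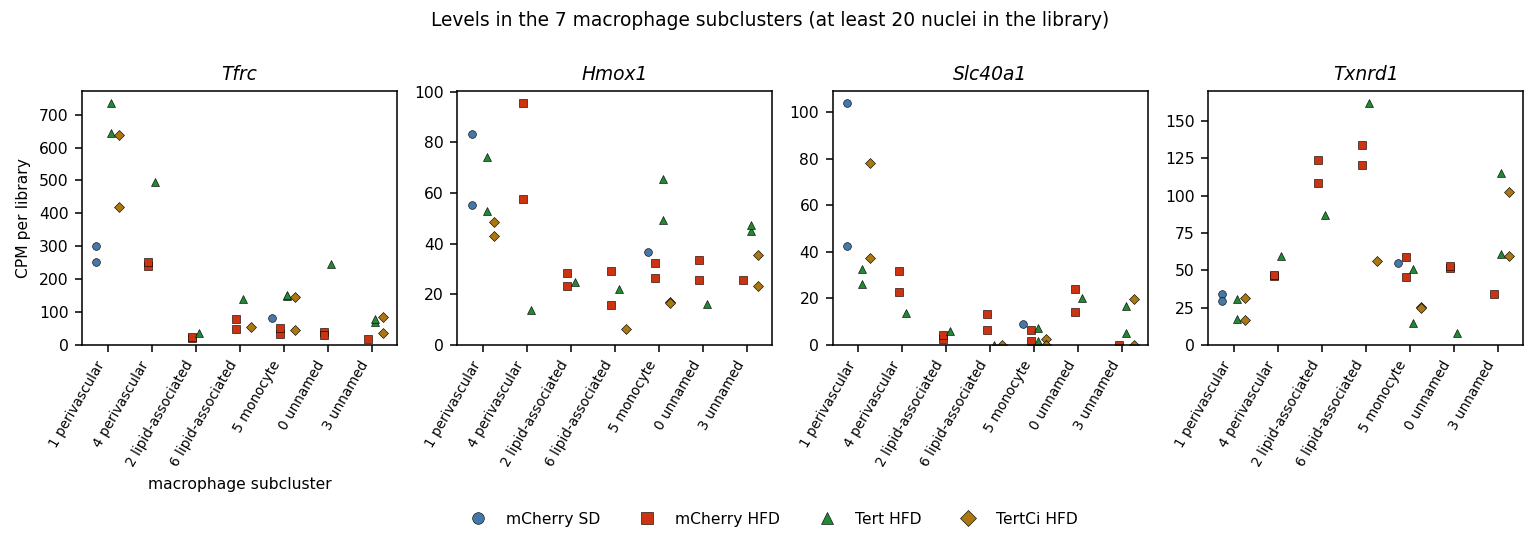
Levels of Tfrc, Hmox1, Slc40a1 and Txnrd1 (CPM) in the 7 subclusters of macrophage-like nuclei, with 1 point for each library that has at least 20 nuclei in the subcluster, coloured by group. By mean over libraries, Tfrc and Hmox1 are highest in the Timd4-led and C6-led perivascular-like subclusters (1 and 4). Txnrd1 is highest by mean in the lipid-associated-like subclusters (2 and 6). Single libraries depart from this. In Tert mouse rep134 Hmox1 reads 13.8 CPM in subcluster 4 and 49.2 CPM in subcluster 5, and Tfrc 248 CPM in subcluster 0. Txnrd1 reaches 115 and 103 CPM in 2 libraries of subcluster 3.

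Tfrc passed in other classes too, at lower levels. Endothelial-like nuclei had 193 CPM in mCherry SD mouse rep146, 45.5 and 59.5 CPM in mCherry HFD, 196 and 241 CPM in Tert HFD, and 79.8 and 152 CPM in TertCi HFD mice. It fell by 2.02 with diet (edgeR adjusted p = 0.0338; the only 1 of 7 genes called, background 3.23%) and rose by 2.15 with Tert (edgeR adjusted p = 0.000625; 2 of 7 called, background 9.78%) and rose by 1.19 with TertCi (edgeR adjusted p = 0.0206; 3 of 7 called, background 18%). Mouse rep144 had fewer than 20 such nuclei and was left out, so mouse rep146 alone stood for the standard diet and was assumed to vary like the other groups. Counted at a minimum of 1000 UMIs in every library, all 3 endothelial-like calls were lost, as they were without mCherry HFD mouse rep128. That minimum was lower than the main cut in every library but that of Tert mouse rep136, and nuclei were clustered anew. The TertCi call was also lost under DESeq2 and without TertCi mouse rep140, and with classes assigned per nucleus the diet value was -1.20 (edgeR adjusted p = 0.0466). The 8 perivascular markers in these nuclei, none at 0, summed to 3603 CPM in mCherry SD mouse rep146, 1264 and 1323 CPM in mCherry HFD, 2322 and 1671 CPM in Tert HFD, and 1876 and 2184 CPM in TertCi HFD mice. These sums were lowest in the same mCherry HFD mice as Tfrc, and their part was not tested. The 8 macrophage markers did not follow Tfrc, at 2003, 2026 and 1971, 1802 and 1472, and 1088 and 1514 CPM in the same order.

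In monocyte-like nuclei Tfrc was at 82.2 CPM in mCherry SD mouse rep146, 33.7 and 52.0 CPM in mCherry HFD, 149 and 153 CPM in Tert HFD, and 44.8 and 147 CPM in TertCi HFD mice. It rose by 2.02 with Tert (edgeR adjusted p = 0.00124; 2 of 5 genes called, background 7.12%), a call lost under DESeq2 and without mCherry HFD mouse rep128. Fth1 was the only gene called for diet (1 of 5, background 3.25%) and for TertCi (1 of 5, background 13.3%). Mouse rep146 alone, with 21 such nuclei and 2 Fth1 UMIs, stood for the standard diet and was assumed to vary like the other groups. The diet call was lost without mCherry HFD mouse rep128, and DESeq2 gave it no adjusted p.

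Lipid-associated-like nuclei had 27.8 and 36.0 CPM of Tfrc in mCherry HFD mice, 105 CPM in Tert mouse rep134 and 48.1 CPM in TertCi mouse rep138. It rose by 1.75 with Tert (edgeR adjusted p = 0.000152; 2 of 7 genes called, background 11.6%), and 2 of 7 genes, Fth1 and Txnrd1, were called for TertCi (background 14%). That Tert mouse had 63 nuclei and that TertCi mouse 35, each alone in its group and assumed to vary like mCherry HFD. The cycling subcluster held 40 of those 63 nuclei and 32 of those 35, against 302 of 1717 and 74 of 416 in mCherry HFD mice. Within it Tfrc was at 49.2 and 78.3 CPM in mCherry HFD, 140.1 CPM in the Tert mouse and 56.3 CPM in the TertCi mouse, and in the other subcluster at 22.3 and 25.2 CPM in mCherry HFD and 37.4 CPM in the Tert mouse. DESeq2 did not call Tfrc, which lay near free RNA (0.670 to 1.08 times). The 6 cycling markers, none at 0, summed to 754 CPM in Tert mouse rep134 and 908 CPM in TertCi mouse rep138 against 255 and 260 CPM in mCherry HFD mice. The 8 lipid-associated markers, none at 0, summed to 3994 and 2563 CPM against 6390 and 6379 CPM. The part of both in the differences of this subset was not tested.

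In adipocyte-like nuclei Tfrc was at 54.3 and 49.8 CPM in mCherry SD, 23.9 and 22.0 CPM in mCherry HFD, 60.9 and 64.2 CPM in Tert HFD, and 19.4 and 51.9 CPM in TertCi HFD mice. It fell by 1.47 with diet (edgeR adjusted p = 0.0473; 2 of 9 genes called, background 21.2%), a call lost without any 1 of the 4 mice compared, at 1000 UMIs in every library and with classes assigned per nucleus. Different clusters filled this class in the groups. A cluster led by Cyp2e1 held 65.9% of adipocyte-like nuclei in mCherry SD mice. In mCherry HFD mice clusters led by Gm5627 (46.0%) and Mageb18 (45.6%) held most. A cluster led by Cacna1e held 54.2% in Tert HFD and 37.6% in TertCi HFD mice. In progenitor-like nuclei Tfrc read 80.0 and 51.1 CPM in mCherry SD, 19.3 and 29.7 CPM in mCherry HFD, 89.3 and 56.7 CPM in Tert HFD, and 21.5 and 44.1 CPM in TertCi HFD mice. It fell by 1.70 with diet (edgeR adjusted p = 0.0120; 2 of 9 called, background 19%) and rose by 1.84 with Tert (edgeR adjusted p = 0.00722; 2 of 9 called, background 16.3%). At a minimum of 1000 UMIs in every library the progenitor-like diet value turned to 0.15 and the Tert call was lost, at 0.91. The diet and Tert calls were both lost without mCherry HFD mouse rep128, the diet call also without mCherry SD mouse rep144 and with classes assigned per nucleus. Progenitor-like nuclei also came from different clusters in the groups. The C7-led cluster held 47.2% of them in mCherry SD, 53.6% in Tert HFD and 65.3% in TertCi HFD mice. In mCherry HFD mice the clusters led by Egfros and Col1a1 (37.9%) and by Col8a1 (35.8%) held most. The level of Tfrc in free RNA was 48.7 and 51.6, 41.5 and 40.2, 106 and 116, and 44.4 and 94.6 CPM in the same order of groups. Both classes lay at or below it in most libraries. The 8 perivascular markers, none at 0, summed in progenitor-like nuclei to 1839 and 1083, 759 and 711, 1235 and 532, and 612 and 573 CPM in that order, and the mice highest in them, rep144 and rep134, were also highest in Tfrc. In adipocyte-like nuclei they summed to 1067 and 750.0, 620.4 and 736, 705 and 533, and 312 and 496 CPM. The part of free RNA, of these markers and of the change of clusters in the differences was not tested.

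Fth1 in macrophage-like nuclei was at 6.69 and 20.6 CPM in mCherry SD, 189 and 239.5 CPM in mCherry HFD, 38.8 and 17.3 CPM in Tert HFD, and 28.4 and 10.2 CPM in TertCi HFD mice. Both mCherry HFD mice stood far above the other 6. It rose by 3.59 with diet (SE 0.478, edgeR adjusted p = 0.000309) and fell by 2.71 with Tert (SE 0.335, edgeR adjusted p = 0.000428) and fell by 3.14 with TertCi (SE 0.352, edgeR adjusted p = 0.000138). Without 1 mouse in turn the diet value ranged from 3.23 to 4.77. Nearly the same pattern was read in adipocyte-like nuclei, at 3.93 and 6.52, 91.6 and 92.9, 22.0 and 8.68, and 16.9 and 7.08 CPM in the same order. There Fth1 rose by 3.77 with diet and fell by 2.29 with Tert (1 of 9 genes called, background 3.57%) and fell by 2.46 with TertCi (2 of 9 called, background 14.9%). The adipocyte-like Tert call was lost at 1000 UMIs and without mouse rep128, rep129 or rep136, and the TertCi call without mouse rep128. In progenitor-like nuclei it rose by 3.77 with diet and fell by 3.09 with Tert and fell by 3.30 with TertCi (the only 1 of 9 called, background 27.8%).

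Free RNA held Fth1 at 11.4 and 29.95 CPM in mCherry SD, 1389 and 1164 CPM in mCherry HFD, 112 and 32.0 CPM in Tert HFD, and 86.2 and 37.1 CPM in TertCi HFD libraries. Its high libraries were the same 2 as in every class of nuclei. Ftl1, the ferritin light chain, moved alike, with 1071 and 867 CPM in mCherry HFD free RNA and 6.24 to 81.4 CPM in the other 6 libraries. The 426 genes with symbols starting in Rpl or Rps took 0.436% and 0.409% of UMIs in macrophage-like nuclei of mCherry HFD mice and 0.150% to 0.247% in the others. This set was taken by symbol, so it holds more than ribosomal protein genes. Mitochondrially encoded genes took 0.0200% and 0.0564% in mCherry HFD mice and 0.0124% to 0.0281% in the others. The part of free or cytoplasmic RNA in the Fth1 differences was not tested.

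Slc40a1 in macrophage-like nuclei read 33.5 and 81.1 CPM in mCherry SD, 12.1 and 15.9 CPM in mCherry HFD, 20.0 and 15.2 CPM in Tert HFD, and 49.9 and 17.0 CPM in TertCi HFD mice. The mCherry SD mice lay above both mCherry HFD mice, and TertCi mouse rep138 was high while TertCi mouse rep140 was near the mCherry HFD level. Slc40a1 fell by 2.31 with diet (SE 0.453, edgeR adjusted p = 0.00399) and rose by 1.53 with TertCi (SE 0.400, edgeR adjusted p = 0.0149). In Tert HFD mice the difference of 0.51 (SE 0.416) did not pass (edgeR adjusted p = 0.429). Without mCherry SD mouse rep146 the diet value was -1.50 (edgeR adjusted p = 0.298), and without TertCi mouse rep138 or mCherry HFD mouse rep128 the TertCi call was lost, the weakest value being 0.46.

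The same gene in perivascular-like nuclei read 41.5 and 102 CPM in mCherry SD, 31.2 and 22.0 CPM in mCherry HFD, 25.6 and 36.4 CPM in Tert HFD, and 77.4 and 37.5 CPM in TertCi HFD mice. It fell by 1.58 with diet (SE 0.388, edgeR adjusted p = 0.0125) and rose by 1.23 with TertCi (edgeR adjusted p = 0.0172). Mouse rep146 and mouse rep138 were again the high ones: without mouse rep146 the diet value was -0.76 (edgeR adjusted p = 0.534), and the TertCi call was lost without mouse rep138, rep128 or rep129, at a weakest value of 0.52. At 1000 UMIs in every library both calls were lost, at -1.06 and 0.63, and DESeq2 did not call TertCi. The 8 lipid-associated markers of this subset stood at 1647 and 1139 CPM in mCherry HFD and 141 to 481 CPM in the other libraries, and their part was not tested. In adipocyte-like nuclei Slc40a1 was at 3.57 and 8.28 CPM in mCherry SD, 11.6 and 9.78 CPM in mCherry HFD, 13.4 and 9.98 CPM in Tert HFD, and 15.2 and 9.96 CPM in TertCi HFD mice, with no call. The mCherry SD levels rested on 10 and 47 UMIs and the mCherry HFD levels on 35 and 4 UMIs. The diet difference was also compared between the 2 classes: it was lower in macrophage-like than adipocyte-like nuclei by -2.66 on the log2 scale (SE 0.475, limma adjusted p = 0.0231). Slc40a1 was the only 1 of 9 genes called in that comparison of classes for diet (background 3.73%), and 0 of 9 were called by limma for Tert (background 0.0161%) or TertCi (background 0.137%), with 1 of 9 under an unadjusted p of 0.05 in each. The median diet difference between the classes was 0.21 over the 9 genes and 0.22 over all genes tested. The adipocyte-like levels lay at or below free RNA in 7 of 8 libraries, and the call was lost without mCherry HFD mouse rep128 or rep129 (limma adjusted p up to 0.0757).

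Hmox1 in macrophage-like nuclei was at 50.2 and 71.4 CPM in mCherry SD, 29.6 and 44.0 CPM in mCherry HFD, 46.2 and 62.2 CPM in Tert HFD, and 35.7 and 32.2 CPM in TertCi HFD mice. The 2 diets did not overlap, and Hmox1 fell by 0.94 with the high fat diet (SE 0.309, edgeR adjusted p = 0.0488). DESeq2 did not call it, and the call was lost at 1000 UMIs in every library (edgeR adjusted p = 0.143), with classes assigned per nucleus (edgeR adjusted p = 0.0703) and in 4 of 8 fits without 1 mouse (rep128, rep138, rep144 or rep146). In perivascular-like nuclei it read 53.9 and 82.2, 57.2 and 97.3, 50.8 and 74.9, and 42.8 and 48.7 CPM in the same order of groups. These ranges overlapped for diet, and the differences of -0.08 for diet, -0.28 for Tert and -0.63 for TertCi (SE 0.328, 0.286 and 0.293) did not pass by edgeR. So Hmox1, like Tfrc, was called for diet in macrophage-like nuclei as a whole and not in this subset, a contrast that was not tested.

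Txnrd1 in macrophage-like nuclei read 50.2 and 34.4 CPM in mCherry SD, 79.9 and 75.7 CPM in mCherry HFD, 55.3 and 41.5 CPM in Tert HFD, and 47.5 and 35.6 CPM in TertCi HFD mice. Both mCherry HFD mice were above the other 6. It rose by 0.83 with diet (SE 0.261, edgeR adjusted p = 0.0410) and fell by 0.73 with TertCi (SE 0.203, edgeR adjusted p = 0.0202), and the Tert difference of -0.54 did not pass (edgeR adjusted p = 0.0768). The diet call was lost under DESeq2 and in 6 of 8 fits without 1 mouse (each but the Tert HFD mice), and the TertCi call with classes assigned per nucleus and in 4 of 8 (each mouse of the groups compared). Free RNA held 30.5 and 47.4, 66.1 and 63.0, 43.4 and 36.7, and 36.3 and 31.1 CPM in the same order. The 8 lipid-associated markers of macrophage-like nuclei, from the subset where Txnrd1 was highest, were 3980 to 4499 CPM in mCherry HFD and 281 to 1930 CPM in the other libraries, as given above, and the part of both was not tested. In perivascular-like nuclei the Txnrd1 differences were 0.49 for diet (edgeR adjusted p = 0.453), -0.65 for Tert (edgeR adjusted p = 0.197) and -0.70 for TertCi (edgeR adjusted p = 0.133), and none passed.

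Txnrd1 was also lower with TertCi in 3 other classes. In adipocyte-like nuclei it read 65.0 and 63.5 CPM in mCherry HFD against 28.6 and 29.6 CPM in TertCi HFD mice and fell by 0.72 (edgeR adjusted p = 0.0391), a call lost under 5 of 6 alternatives and without any mouse but the Tert HFD mice. In endothelial-like nuclei it read 85.6 and 80.3 CPM against 24.6 and 21.1 CPM and fell by 1.71 (edgeR adjusted p = 0.00268), lost under DESeq2, at 1000 UMIs and without mouse rep128 or rep138, and at -1.13 with classes assigned per nucleus. In lipid-associated-like nuclei it fell by 1.21 (edgeR adjusted p = 0.0336), from the levels given above, a call that DESeq2 did not make, and at 1000 UMIs in every library the value turned to 0.063. The cycling markers given above were higher, and the lipid-associated markers lower, in both the Tert and the TertCi mouse than in mCherry HFD mice. Within the cycling subcluster Txnrd1 was at 120.9 and 133.7 CPM in mCherry HFD mice, 162 CPM in Tert mouse rep134 and 56.3 CPM in the TertCi mouse. The 8 lipid-associated markers, none at 0, summed to 3571 and 2768 CPM in endothelial-like nuclei of mCherry HFD mice against 688 and 599 CPM in TertCi HFD mice, and to 1768 and 1640 CPM against 865 and 888 CPM in adipocyte-like nuclei. The part of these markers and of the cycling markers in the Txnrd1 differences was not tested. The gene whose promoter window carried antioxidant response element letters beside Txnrd1, Gclm, passed in no class: in macrophage-like nuclei its differences were -0.24, 0.10 and 0.33 (SE 0.403, 0.295 and 0.296) for diet, Tert and TertCi.

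Gclc differences in macrophage-like nuclei were -0.03, -0.25 and -0.23 (SE 0.309, 0.243 and 0.247) for the same comparisons, none of which passed by edgeR. Over all nuclei of a library summed, 3 of 10 genes were called for diet (background 40.7%), and Gclc was among them at -0.51 (edgeR adjusted p = 0.0367), a call lost under DESeq2, with no filter on low counts and without mouse rep146, rep128, rep129 or rep138. Gclc read 29.0 and 39.3 CPM in mCherry SD and 32.4 and 33.0 CPM in mCherry HFD mice, so both mCherry HFD mice lay between the mCherry SD mice. These CPM are not TMM-scaled, whereas the edgeR value is. The classes that make up the libraries differ in size between groups, so that sum also moves with the makeup. Slc7a11 differences were 1.63, 0.80 and 0.75 (SE 1.31, 0.585 and 0.570) in macrophage-like nuclei, and the largest in progenitor-like nuclei was 1.30 for TertCi (edgeR adjusted p = 0.0745). The C7-led cluster, highest in Slc7a11 among progenitor-like clusters, held 847 of 1297 and 293 of 450 progenitor-like nuclei in TertCi HFD mice. In mCherry HFD mice it held 140 of 1976 and 44 of 652, and its part was not tested. Nqo1, tested over all nuclei only, differed by -0.25, 0.09 and 0.39 (SE 0.668, 0.674 and 0.664) and was not called.

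Gpx4 was called for diet in macrophage-like nuclei (edgeR adjusted p = 0.0384), from 0 and 1.37 CPM in mCherry SD to 7.79 and 13.5 CPM in mCherry HFD mice. The standard diet side held 1 UMI against 272 on the high fat diet, a ratio of 8.81 per UMI counted with an exact 95% interval of 1.57 to 349, which covers counting error only. The call was lost under DESeq2, with only the groups compared (edgeR adjusted p = 0.0517), with classes assigned per nucleus (edgeR adjusted p = 0.129) and in 5 of 8 fits without 1 mouse (rep129, rep138, rep140, rep144 or rep146). The difference of 3.25 on the log2 scale was 1.51 at 1000 UMIs in every library. Gpx4 in free RNA was at 9.49 and 14.5 CPM in mCherry SD and 44.5 and 66.1 CPM in mCherry HFD libraries, in each library above the macrophage-like level, and its part was not tested.

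**Figure D4:**
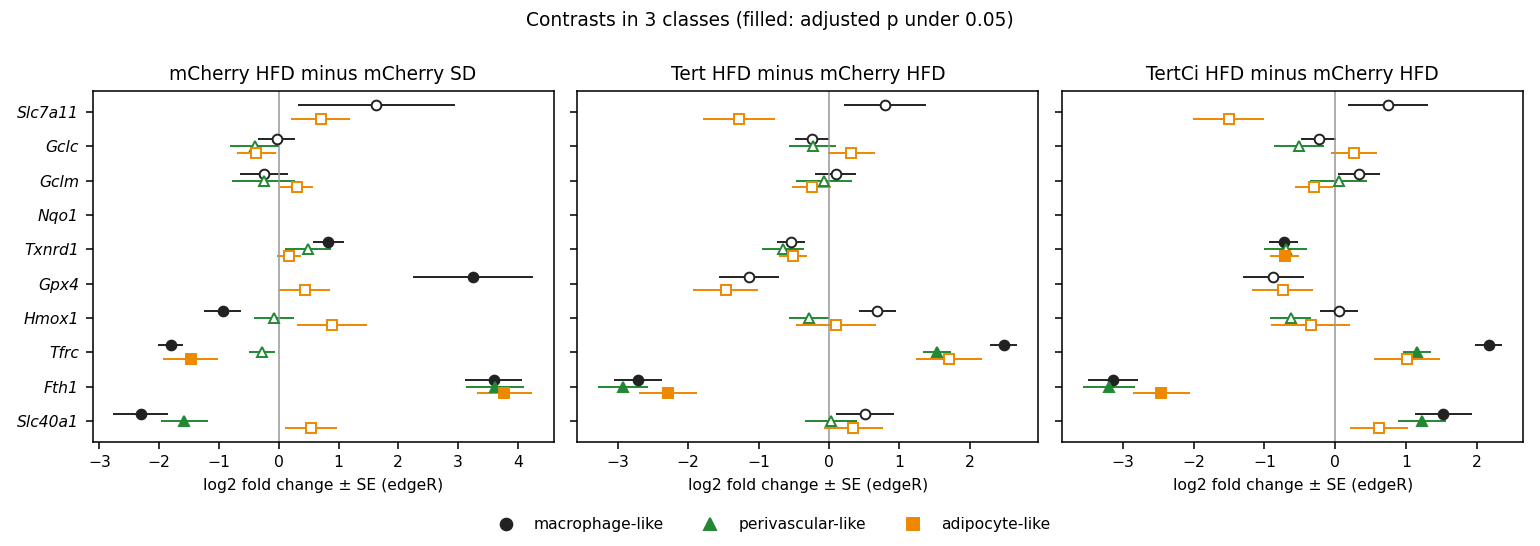
Log2 fold changes with their SE (edgeR) of the genes tested in macrophage-like, perivascular-like and adipocyte-like nuclei for diet, Tert and TertCi. Filled points passed an adjusted p of 0.05. Tfrc lies above 0 and Fth1 below 0 for both Tert constructs in all 3 classes, and Tfrc passed with Tert and TertCi in macrophage-like and perivascular-like nuclei.

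The direct comparison of Tert HFD with TertCi HFD mice called 0 of the 10 genes by edgeR in each class. In macrophage-like nuclei 0 of 13552 genes were called (background 0%), 532 genes and 2 of the 9 had an unadjusted p under 0.05, and DESeq2 gave 0 calls, with 295 genes and 0 of the 9 at that unadjusted p. In adipocyte-like nuclei edgeR called 0 genes (background 0%; 803 genes and 0 of the 9 unadjusted) and DESeq2 2, none of them among the 9. In progenitor-like nuclei both tools called 0 (background 0%; 898 genes and 3 of the 9 unadjusted by edgeR, 443 and 2 by DESeq2). In perivascular-like nuclei edgeR called 1 gene (background 0.012%) and DESeq2 3, in lipid-associated-like nuclei 73 (background 0.667%) and 18, in monocyte-like nuclei 2 (background 0.0341%) and 0, and in endothelial-like nuclei 0 (background 0%) and 0. Unadjusted by edgeR, 1 of 7, 2 of 7, 2 of 5 and 2 of 7 of the 10 genes were under 0.05 there, among 474, 1346, 292 and 514 genes. With no filter on low counts edgeR called 37 genes in macrophage-like, 95 in adipocyte-like, 140 in progenitor-like, 56 in perivascular-like, 104 in lipid-associated-like, 6 in monocyte-like and 49 in endothelial-like nuclei. Among them were Tfrc in progenitor-like (edgeR adjusted p = 0.000754) and Slc40a1 in perivascular-like nuclei (edgeR adjusted p = 0.0315). With the filter, the Tert minus TertCi difference of Tfrc was above 0 in each class and past the threshold in none. It was 0.31 (SE 0.184) in macrophage-like, 0.38 (SE 0.196) in perivascular-like, 0.69 (SE 0.397) in adipocyte-like, 0.83 (SE 0.379) in monocyte-like, 0.95 (SE 0.312) in endothelial-like, 1.16 (SE 0.487) in lipid-associated-like and 1.17 (SE 0.363) in progenitor-like nuclei, and the last 4 had an unadjusted p under 0.05 by edgeR. For Slc40a1 the difference was -1.02 (SE 0.419) in macrophage-like, -1.20 (SE 0.361) in perivascular-like and -0.91 (SE 0.381) in progenitor-like nuclei, none past the threshold by edgeR.

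The wider pathway was read from 56 further genes of the NRF2, glutathione, thioredoxin, heme and iron systems. In macrophage-like nuclei 52 were tested: 10 rose and 3 fell with diet (background 20.4%), 1 rose and 9 fell with Tert (background 19.3%), and 2 rose and 8 fell with TertCi (background 25.8%) by edgeR. The background is the share of all genes tested that passed, in either direction, to be read against both directions summed. Their median log2 fold changes were 0.22, -0.03 and -0.16, beside 0.11, -0.05 and -0.08 over all genes tested. The summed counts, 13, 10 and 10 of 52, lay near or below the background. Slc11a1, the phagosomal iron transporter, read 30.1 and 37.1 CPM in mCherry SD, 139.5 and 79.0 CPM in mCherry HFD, 48.8 and 24.2 CPM in Tert HFD, and 43.5 and 23.7 CPM in TertCi HFD mice. It rose by 1.54 with diet and fell by 1.40 with Tert and fell by 1.49 with TertCi. The heme exporter Flvcr1 rose by 1.52 with diet and fell by 0.75 with Tert. It read 99.4 and 98.8 CPM in mCherry HFD, 57.3 and 49.8 CPM in Tert HFD, and 44.6 and 43.2 CPM in TertCi HFD mice. Sqstm1, which binds the NRF2 repressor Keap1, rose by 1.12 with diet and fell by 1.02 with Tert and fell by 1.10 with TertCi. It read 80.2 and 92.7 CPM in mCherry HFD mice and 30.2 to 46.8 CPM in the other libraries. Ftl1 rose by 4.22 and fell by 2.38 and fell by 2.75, and the peroxidase Gpx1 rose by 1.43 and fell by 1.54 and fell by 1.51. In free RNA Gpx1 was at 377 and 278 CPM in mCherry HFD libraries and 21.9 to 63.5 CPM in the other 6, and Slc11a1 at 87.4 and 59.98 CPM against 3.44 to 16.9 CPM. Flvcr1 was there at 84.5 and 88.8 CPM against 21.2 to 45.9 CPM, and Sqstm1 at 102 and 95.5 CPM against 37.9 to 69.2 CPM. Their part in these differences was not tested.

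Perivascular-like nuclei had 42 of the 56 tested, of which 7 rose and 0 fell with diet (background 13.6%), 0 rose and 8 fell with Tert (background 11.6%), and 0 rose and 9 fell with TertCi (background 18.3%). Medians were 0.21, -0.17 and -0.32, beside 0.05, -0.02 and -0.04 over all genes tested. Txnip, the inhibitor of thioredoxin, read 83.0 and 106 CPM in mCherry SD, 256 and 206 CPM in mCherry HFD, 183 and 169 CPM in Tert HFD, and 160.0 and 139 CPM in TertCi HFD mice, and rose by 1.16 with diet (edgeR adjusted p = 0.00181). Free RNA held more Txnip than these nuclei in both mCherry SD libraries, at 155 and 329 CPM. The same held in both mCherry HFD libraries, at 456 and 377 CPM. The Tert HFD and TertCi HFD groups each had a library with more in free RNA and a library with less. Lipid-associated-like nuclei had 50 tested, of which 0 rose and 3 fell with Tert (background 11.6%) and 2 rose and 8 fell with TertCi (background 14%), with medians of -0.05 and -0.27 beside -0.04 and -0.15.

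Adipocyte-like nuclei had 52 tested: 7 rose and 3 fell with diet (background 21.2%), 0 rose and 4 fell with Tert (background 3.57%), and 1 rose and 5 fell with TertCi (background 14.9%), with medians of 0.11, -0.05 and 0.00 beside 0.02, 0.00 and -0.01 over all genes tested. Gss, which joins glycine to the product of glutamate-cysteine ligase to complete glutathione, read 11.1 and 12.3 CPM in mCherry SD, 64.0 and 159 CPM in mCherry HFD, 22.8 and 14.3 CPM in Tert HFD, and 13.4 and 18.3 CPM in TertCi HFD mice. Both mCherry HFD mice stood above the other 6, from 180 and 59 nuclei. Gss rose by 2.82 with diet (edgeR adjusted p = 0.00279) and fell by 2.19 with Tert (edgeR adjusted p = 0.0301) and fell by 2.29 with TertCi (edgeR adjusted p = 0.00856). Free RNA held Gss at 7.35 to 13.3 CPM in all 8 libraries, with the mCherry HFD libraries at 8.98 and 11.02 CPM inside that range. The 8 lipid-associated markers in adipocyte-like nuclei also stood highest in mCherry HFD mice, at 1768 and 1640 CPM against 659 to 1449 CPM in the other 6. Different clusters filled this class in the groups compared, as given above for Tfrc. The part of both in the Gss differences was not tested.

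Progenitor-like nuclei had 53 tested: 9 rose and 2 fell with diet (background 19%), 1 rose and 5 fell with Tert (background 16.3%), and 5 rose and 12 fell with TertCi (background 27.8%), with medians of -0.08, -0.07 and -0.09 beside 0.05, -0.05 and -0.07 over all genes tested. Cp, ceruloplasmin, the copper oxidase that helps ferroportin release iron, was well counted there, at 286 and 332 CPM in mCherry SD, 199 and 219 CPM in mCherry HFD, 376 and 344 CPM in Tert HFD, and 428 and 342 CPM in TertCi HFD mice. The mCherry HFD mice lay below the other 6. Cp fell by 0.80 with diet (edgeR adjusted p = 0.00525) and rose by 0.98 with Tert (edgeR adjusted p = 0.00253) and rose by 1.14 with TertCi (edgeR adjusted p = 0.000595). Its free RNA level was 67.7 to 191 CPM. The 8 lipid-associated markers in progenitor-like nuclei summed to 1415 and 1449 CPM in mCherry HFD and 238 to 547 CPM in the other libraries. The clusters that filled this class also changed with the groups, as given above for Tfrc. The part of both in the Cp differences was not tested. In adipocyte-like nuclei Cp went the other way with TertCi: it read 77.3 and 85.5 CPM in mCherry HFD against 35.4 and 18.6 CPM in TertCi HFD mice and fell by 1.12 (edgeR adjusted p = 0.0472).

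Genes with the pattern most like 4 of the 10 were found by Pearson correlation of log2(CPM + 5) over 32 library-by-class sums. These 4 were set in the plan, not picked for high correlations, and the other members are not shown. These sums share libraries and depth, so the values are descriptions. For Hmox1 they were Cd53 (0.92), Unc93b1 (0.92) and Lgmn (0.91), for Slc40a1 Nt5c2 (0.80), Pdgfc (0.78) and Slc16a7 (0.77), for Slc7a11 Ccdc170 (0.79), Pde11a (0.79) and Sema3d (0.76), and for the barely counted Nqo1 Rabgap1 (0.59), Rictor (0.55) and Yeats2 (0.54).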

How the data were processed

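Single nuclei from 8 frozen samples of visceral white adipose tissue, 2 mice a group, were measured with 10x 3′ libraries. The authors deposited unfiltered UMI counts per gene and barcode, made with Cell Ranger 7.1.0 per the file headers. The submitters' processing notes name Cell Ranger 5.0.1, bcl2fastq 2.20.0 and the build mm39; this conflict was not resolved. The design text speaks of stromal vascular cells and p21+/- mice, and the sample labels were followed. Samples were processed in batches of 2, per the labels' protocols. Which 2 is not recorded, so batch was not fitted. With 2 mice a group, a batch may be the same as a group, and no comparison can be told apart from batch.

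Barcodes were called nuclei above 0.1 of the 99th percentile of the 5000 largest, with at least 500 UMIs, 300 genes and at most 5% mitochondrial UMIs. This cut came to 987 UMIs in Tert mouse rep136 and to 1712 to 4705 UMIs in the other libraries. Scrublet's own threshold marked at most 0.154% of barcodes, so the highest-scoring 1.59% to 6.35% were removed. Nuclei were clustered (scanpy 1.11.5, 2000 variable genes, 30 components, resolution 1) and classes named from fixed marker lists. Counts were summed per library and class with at least 20 nuclei. They were tested with edgeR 4.0.16 (quasi-likelihood, TMM, filterByExpr, all groups in 1 fit, Benjamini-Hochberg over all genes), and differences between classes with limma 3.58.1. DESeq2 1.42.0 was an alternative. The edgeR and limma fits were tested on simulated data. The 10 genes and the lists were chosen with earlier results of these data known. Pathway genes were listed if called, with a mean of at least 20 CPM, by size of change, up to 6 per class and comparison. The text names only a part of those listed, so a gene that is not named can have been called. Genes of like pattern, with a mean of at least 20 CPM, are named for Hmox1, Slc40a1, Slc7a11 and Nqo1 only. These 4 were set in the plan and not by their values. Intervals cover counting error only.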

Additional observations from a re-analysis of the deposited data

Results flagged for a closer look

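The diet effect on Slc40a1 passed a test of the difference between 2 cell classes: the log2 fold change in macrophage-like nuclei minus that in adipocyte-like nuclei was -2.66 (SE 0.475, limma adjusted p = 0.0231). The level was lower on the high fat diet in macrophage-like nuclei (33.5 and 81.1 CPM in mCherry SD against 12.1 and 15.9 CPM in mCherry HFD mice). The log2 fold change there was -2.31, and -1.50 without mCherry SD mouse rep146, where the call in that class was lost. The 8 perivascular markers of macrophage-like nuclei summed to 7236 and 7917 CPM against 2387 and 2339 CPM, and their part was not tested. In adipocyte-like nuclei Slc40a1 was at 3.57 and 8.28 CPM against 11.6 and 9.78 CPM, from 10 and 47 UMIs against 35 and 4 UMIs. The call was lost without mCherry HFD mouse rep128 (limma adjusted p = 0.0757) or rep129 (limma adjusted p = 0.0523), and the adipocyte-like levels lay at or below free RNA in 7 of 8 libraries.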

How the results depend on the processing

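No paired analysis was possible because the groups compared share no replicate numbers. Alternatives were DESeq2 size factors (RLE), no filter on low counts, the DESeq2 test, only the groups compared in the fit, a minimum of 1000 UMIs per nucleus in every library, classes assigned per nucleus, and each mouse left out in turn. The minimum of 1000 UMIs replaced main cuts of 987 UMIs in Tert mouse rep136 and 1712 to 4705 UMIs elsewhere. It thus let in shallower barcodes in every library but that one, and nuclei were clustered and named again. The fits for endothelial-like, monocyte-like and all nuclei and the second window for free RNA were chosen after seeing the data. That window, above 100 and below 500 UMIs, is the one used for free RNA except where 10 to 100 UMIs is named.

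Tfrc and Fth1 in macrophage-like nuclei kept their calls for diet, Tert and TertCi in every alternative run, as did Tfrc in perivascular-like nuclei for Tert and TertCi. Counts of the 10 genes called moved in other cases. The share of all genes called under each alternative is not given here, so these counts cannot be read against a background. For macrophage-like nuclei the diet count of 6 was 3 with DESeq2 and ranged from 2 to 6 without 1 mouse, the Tert count of 2 from 2 to 4, and the TertCi count of 4 from 2 to 4. For adipocyte-like nuclei the diet count of 2 was 1 at 1000 UMIs and 1 with classes per nucleus, and 1 to 2 without 1 mouse. Their Tert count of 1 was 2 without a filter, 2 with DESeq2, 2 with only the groups compared and 0 at 1000 UMIs, and 0 to 3 without 1 mouse. Their TertCi count of 2 was 1 with DESeq2, 1 at 1000 UMIs and 1 with classes per nucleus, and 0 to 3 without 1 mouse. For progenitor-like nuclei the diet count of 2 was 1 with classes per nucleus and 1 to 3 without 1 mouse, and the Tert count of 2 was 1 to 2. Their TertCi count of 1 was 5 without a filter, 2 with only the groups compared, 2 at 1000 UMIs and 2 with classes per nucleus, and 1 to 3 without 1 mouse. Their count of 0 for Tert against TertCi was 1 without a filter. For lipid-associated-like nuclei the Tert count of 2 and the TertCi count of 2 were each 1 with DESeq2. For perivascular-like nuclei the diet count of 2 ranged from 1 to 3 without 1 mouse and the TertCi count of 3 from 2 to 3. The count of 1 for macrophage-like minus adipocyte-like nuclei, diet, was 2 at 1000 UMIs and 0 to 2 without 1 mouse. At 1000 UMIs in every library, 2 values changed sign: Tfrc with diet in progenitor-like nuclei (0.15) and Txnrd1 with TertCi in lipid-associated-like nuclei (0.063). The causes were not tested. DESeq2 gave no adjusted p for Fth1 with diet in monocyte-like nuclei, so that count was not compared. With 2 mice a group and fewer than 100 macrophage-like nuclei in mCherry SD mouse rep144 (91), small differences could be missed. The smallest difference that could be detected was not worked out.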
